A study of Homo sapiens with 12 samples.

Results

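The enzymes that hydroxylate and crosslink collagen were examined in RCC4, an established human clear cell renal carcinoma (ccRCC) cell line that lacks functional VHL. The 9 genes were the prolyl 4-hydroxylase subunits P4HA1, P4HA2, P4HA3 and P4HB, the lysyl hydroxylases PLOD1, PLOD2 and PLOD3, and the lysyl oxidases LOX and LOXL2. They were chosen by gene symbol, with earlier results of these data known, and all 9 were among the 23106 symbols counted in each library. Bulk RNA-seq libraries had been made 48 h after transfection with siRNA pools at 2 nM in total. The control dishes received 2 nM control siRNA, the HIF1A siRNA dishes 1 nM HIF1A siRNA plus 1 nM control siRNA, the HIF2A siRNA dishes 1 nM siRNA against EPAS1 (the gene encoding HIF-2α) plus 1 nM control siRNA, and the double knockdown 1 nM of each HIF siRNA with no control siRNA. Each of the 4 conditions had 3 replicates, giving 12 libraries, and the replicate number paired libraries across conditions. Every condition, the control included, was therefore VHL-deficient and was cultured at atmospheric oxygen. All values come from 1 cell line.

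Newly made collagen chains are modified in the endoplasmic reticulum before they fold into a triple helix. Prolyl 4-hydroxylase, an assembly of catalytic alpha subunits (P4HA1, P4HA2 or P4HA3) with the beta subunit P4HB, makes the hydroxyprolines that stabilize the helix at body temperature. The PLOD enzymes hydroxylate lysines, and LOX and LOXL2 oxidize lysines outside the cell so that neighboring chains become covalently crosslinked. The hydroxylases need molecular oxygen, iron and 2-oxoglutarate, as do the enzymes that mark HIF-1α and HIF-2α for destruction through VHL. HIF-1α and HIF-2α pair with ARNT and bind DNA at sites with a core of ACGTG or GCGTG, and several collagen modifying enzymes are known hypoxia-inducible genes.

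To show the DNA around the start sites, RefSeq promoter windows (GRCh38.p14, 250 bases before the start to 50 after it, written 5′ to 3′ on the strand of the gene) were searched on both strands for ACGTG and GCGTG. A window was at hand for 7 of the 9 genes, with none used for P4HA3 and LOXL2. Matches are printed in capitals, and a match on the other strand reads CACGT or CACGC. The windows are those of the 4 genes that fell with HIF1A siRNA (P4HA1, P4HA2, PLOD2 and LOX) and of PLOD3, which was called in no comparison. They lie at chr10:73096817-73097116 (minus strand, P4HA1), chr5:132227042-132227341 (minus strand, P4HA2), chr3:146161135-146161434 (minus strand, PLOD2), chr5:122078210-122078509 (minus strand, LOX, the most upstream of 3 windows) and chr7:101217532-101217831 (minus strand, PLOD3).
P4HA1: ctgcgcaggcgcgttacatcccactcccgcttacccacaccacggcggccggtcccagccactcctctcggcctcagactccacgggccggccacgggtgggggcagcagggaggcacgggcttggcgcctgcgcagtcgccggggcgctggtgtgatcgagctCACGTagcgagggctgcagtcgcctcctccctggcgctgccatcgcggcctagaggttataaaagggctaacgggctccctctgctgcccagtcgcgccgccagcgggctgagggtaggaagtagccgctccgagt
P4HA2: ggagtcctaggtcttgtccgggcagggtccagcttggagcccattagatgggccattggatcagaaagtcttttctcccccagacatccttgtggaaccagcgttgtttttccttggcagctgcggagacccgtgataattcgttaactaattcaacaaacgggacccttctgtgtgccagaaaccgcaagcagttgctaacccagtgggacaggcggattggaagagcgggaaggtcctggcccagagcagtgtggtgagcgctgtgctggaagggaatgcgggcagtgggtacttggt
PLOD2: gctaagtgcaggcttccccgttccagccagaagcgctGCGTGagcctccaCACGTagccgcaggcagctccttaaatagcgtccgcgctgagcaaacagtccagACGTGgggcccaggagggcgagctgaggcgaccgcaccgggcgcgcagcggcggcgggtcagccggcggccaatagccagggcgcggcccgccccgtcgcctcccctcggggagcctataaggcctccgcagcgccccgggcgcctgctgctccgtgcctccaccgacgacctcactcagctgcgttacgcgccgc
LOX: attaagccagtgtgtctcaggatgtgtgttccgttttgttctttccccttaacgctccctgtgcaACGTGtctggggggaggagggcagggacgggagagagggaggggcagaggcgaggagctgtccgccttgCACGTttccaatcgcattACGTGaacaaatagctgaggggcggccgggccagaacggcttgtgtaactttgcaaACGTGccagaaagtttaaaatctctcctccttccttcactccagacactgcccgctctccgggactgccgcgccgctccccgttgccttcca
PLOD3: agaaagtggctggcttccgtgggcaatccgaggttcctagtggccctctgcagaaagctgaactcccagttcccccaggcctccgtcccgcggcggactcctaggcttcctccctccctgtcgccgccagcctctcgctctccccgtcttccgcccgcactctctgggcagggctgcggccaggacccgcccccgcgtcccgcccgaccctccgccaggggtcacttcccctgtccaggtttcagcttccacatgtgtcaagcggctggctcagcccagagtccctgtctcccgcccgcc

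The LOX window held 4 matches to ACGTG, at bases -185, -116, -98 and -42 from the start. PLOD2 had 2 matches to ACGTG (bases -200 and -146) and 1 to GCGTG (base -213), and P4HA1 had 1 match to ACGTG (base -86). PLOD1 held 2 matches to GCGTG and P4HB 1, and no match was present in the windows of P4HA2 and PLOD3. No matches overlapped. ACGTG was thus found in 3 of 7 windows, GCGTG in 3 of 7 and either core in 5 of 7, beside 21.4%, 36.5% and 48.4% of all 35116 windows of this length in the RefSeq table. The first base of the P4HA2 transcript that GENCODE marks as canonical lies 762 bases upstream of the start used for its window, so that window does not cover it, whereas the other 6 windows start from the same base. These matches describe the letters in the windows and are no measurement of binding.

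The siRNA pools lowered their targets, which checks the labels. HIF1A mRNA was at 96.7 ± 33.6 CPM (CPM, counts scaled to the TMM-adjusted size of the library, ± SD, n = 3) with control siRNA and at 18.3 ± 3.62 CPM with HIF1A siRNA, and EPAS1 mRNA was at 157 ± 16.9 CPM with control siRNA and 10.1 ± 1.53 CPM with HIF2A siRNA. With HIF1A siRNA EPAS1 was at 114 ± 17.7 CPM, lower in 3 of 3 pairs but not called (log2 fold change -0.47, SE 0.15, adjusted p = 0.28 by edgeR). With HIF2A siRNA HIF1A was at 121 ± 13.3 CPM, not called either (log2 fold change 0.37, SE 0.20, adjusted p = 0.93 by edgeR). Its replicate 1 was below the paired control, and replicates 2 and 3 were above. In the double knockdown HIF1A was at 28.7 ± 4.09 CPM and EPAS1 at 8.94 ± 2.16 CPM. Total counts ran from 13263168 to 20451433 per library. All 10 markers of renal epithelium and ccRCC were detected in each condition. Their summed level was 6021 to 7869 CPM with control siRNA, 5108 to 6448 CPM with HIF1A siRNA, 5150 to 6494 CPM with HIF2A siRNA and 4530 to 5898 CPM in the double knockdown. VIM made up most of the sum, at 4611 ± 723 CPM with control siRNA and 3661 ± 491 CPM in the double knockdown, and the HIF-responsive markers CA9 (226 ± 73.2 and 13.0 ± 5.43 CPM) and NDUFA4L2 (417 ± 241 and 115 ± 86.1 CPM) were also lower there. PAX8 (229 ± 35.3 and 298 ± 24.9 CPM), PAX2 (62.6 ± 23.5 and 66.0 ± 25.9 CPM), KRT8 (437 ± 80.0 and 474 ± 74.0 CPM), KRT18 (111 ± 28.4 and 159 ± 53.7 CPM) and EPCAM (46.3 ± 9.66 and 54.2 ± 17.3 CPM) had higher means in the double knockdown. KRT19 (93.3 ± 15.2 and 63.8 ± 16.9 CPM) and CDH2 (412 ± 111 and 347 ± 103 CPM) had lower means there, so the list moved in both directions. The part of these differences in the results was not tested. The 7 fibroblast markers, of the cell type that makes most interstitial collagen, summed to 0.935 to 9.75 CPM per library, with PDGFRA, DCN, POSTN and FAP at or near 0. PDGFRB was at 2.75 ± 1.87 CPM with control siRNA and 4.38 ± 3.64 CPM with HIF2A siRNA. LUM was at 0.669 ± 0.389 and 1.36 ± 0.726 CPM in these conditions. The 5 endothelial markers summed to at most 0.432 CPM, and of the 5 immune markers, which summed to 33.1 to 65.5 CPM, CD68 made up nearly all and PTPRC and CD3E were at 0 in every library.

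Every member had reads in every library, and all 9 passed edgeR's expression filter in the 9-library and 12-library fits. Compared per kb of the canonical transcript, with control siRNA, P4HB was the most abundant at 413 ± 30.5 CPM per kb (SD, n = 3). It was followed by LOXL2 (252 ± 62.0), PLOD2 (116 ± 24.1), P4HA2 (83.6 ± 7.17), P4HA1 (73.4 ± 6.44), PLOD3 (61.1 ± 7.22), PLOD1 (59.5 ± 4.43), LOX (30.8 ± 7.65) and P4HA3 (0.834 ± 0.111), all in CPM per kb. P4HA2 and P4HA1 lay within their summed SDs of each other, as did P4HA1 and PLOD3, and PLOD3 and PLOD1. Within each control library, however, P4HA2 was above P4HA1 and P4HA1 above PLOD3. PLOD3 was below PLOD1 in replicate 1 and above it in replicates 2 and 3, so PLOD3 and PLOD1 were not separated. P4HB also serves as protein disulfide isomerase outside the prolyl hydroxylase, and its level was above that of the alpha subunits together.

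The comparisons addressed which HIF the enzyme genes depend on in these cells: each HIF siRNA against control siRNA, the double knockdown against control siRNA, and HIF1A siRNA against HIF2A siRNA. With HIF1A siRNA, P4HA1, P4HA2, PLOD2 and LOX fell and no member rose. The 4 of 9 members called lower stand beside 1.14% of all 12830 genes tested (146 genes) (edgeR's quasi-likelihood test, p adjusted over all genes by the Benjamini-Hochberg method, limit 0.05). Because the members were chosen with earlier results of these data known, such contrasts with all genes are descriptions only. The members' median log2 fold change was -0.34, against 0.003 over all genes, and 6 of 9 members had every HIF1A siRNA library below every control library, as did 4.22% of all genes. With HIF2A siRNA no member was called, beside 0.0857% of genes called lower, and the members' median log2 fold change was -0.03. No member had an unadjusted p under 0.05 in that comparison either (690 of all genes did), and DESeq2 also called 0 members. None lay wholly below the control libraries with HIF2A siRNA, where 2.88% of genes did. A count of 0 among 9 is near the background for both measures. The comparisons against control siRNA share the control libraries. In bulk RNA, fewer cells expressing a gene and less of its RNA per cell cannot be told apart.

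**Figure D1:**
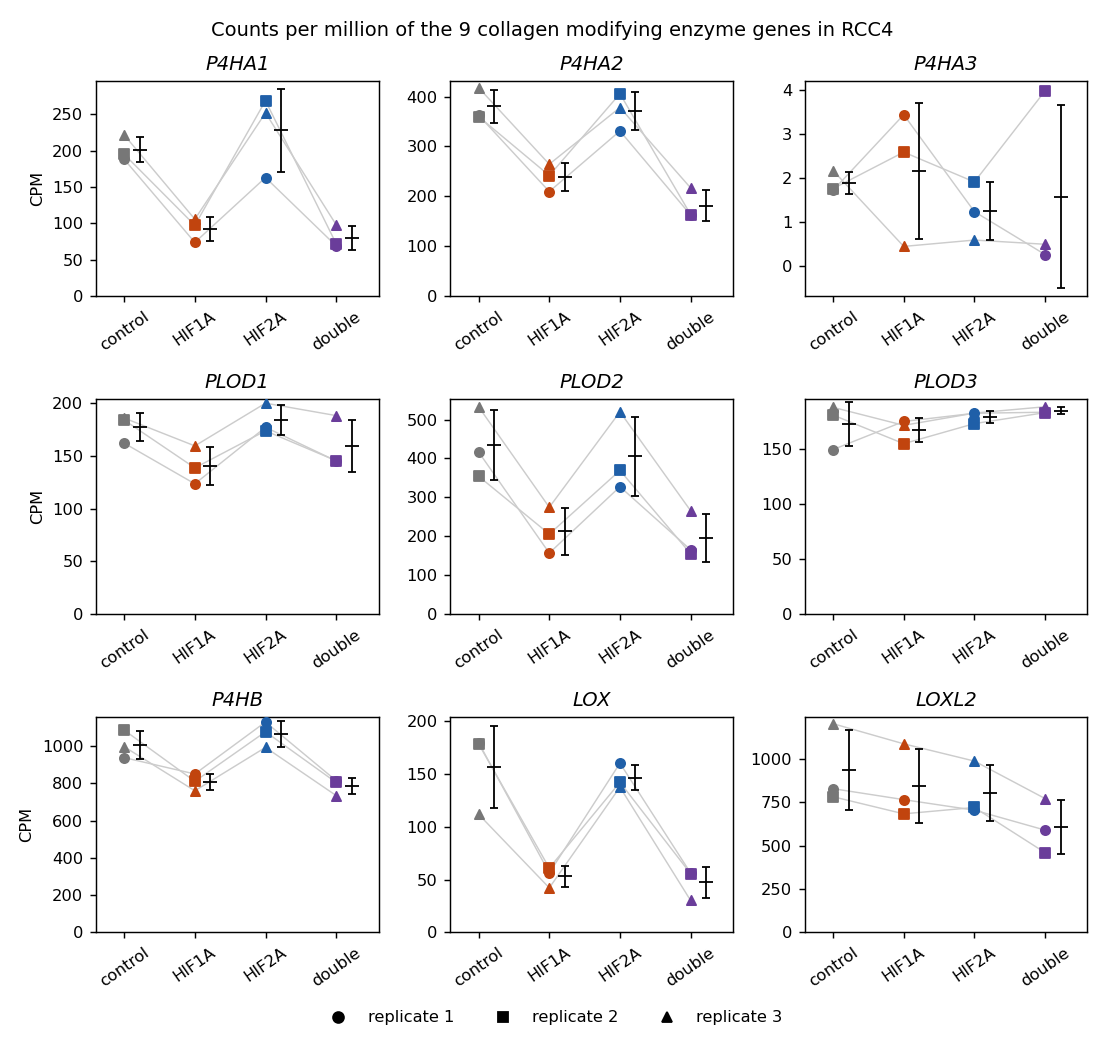
Level of each gene in CPM (y axis, linear, from 0 except for P4HA3, whose error bar reaches below 0) in the 12 RCC4 libraries, by siRNA condition (x axis). Point shapes give the replicate number, gray lines join libraries of the same number, and black bars are the mean ± SD of 3 libraries. P4HA1, P4HA2, PLOD2 and LOX are lower in every library with HIF1A siRNA, alone or in the double knockdown, than in any with control or HIF2A siRNA.

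Of the catalytic alpha subunits, P4HA1 was at 188, 195 and 221 CPM with control siRNA (replicates 1 to 3) and at 73.9, 97.4 and 106 CPM with HIF1A siRNA. It was at 163, 268 and 252 CPM with HIF2A siRNA, and at 69.1, 72.1 and 98.2 CPM in the double knockdown. The libraries with HIF1A siRNA, alone or in the double knockdown, thus lay well apart from the other 6, at 36.9 to 50.1% of the paired control. P4HA1 fell with HIF1A siRNA (log2 fold change -1.14, SE 0.14, adjusted p = 0.00053 by edgeR) and in the double knockdown (-1.35, SE 0.13, adjusted p = 8.8e-06). With HIF2A siRNA its log2 fold change was 0.16 (SE 0.14, adjusted p = 0.95), with replicate 1 below its control and replicates 2 and 3 above. Without the replicate block the call with HIF1A siRNA was lost (adjusted p = 0.093), whereas that in the double knockdown held.

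P4HA2, the other main alpha subunit, was at 363, 360 and 418 CPM with control siRNA and at 210, 242 and 264 CPM with HIF1A siRNA. It was at 331, 406 and 378 CPM with HIF2A siRNA, and at 163, 164 and 217 CPM in the double knockdown. The HIF1A siRNA libraries again did not overlap the control libraries, at 57.9 to 67.2% of the paired control, and the double knockdown was at 45.0 to 52.0%. The log2 fold change was -0.67 with HIF1A siRNA (SE 0.12, adjusted p = 0.0093 by edgeR), -0.03 with HIF2A siRNA (SE 0.11, adjusted p = 0.99) and -1.08 in the double knockdown (SE 0.11, adjusted p = 1.2e-05). The call with HIF1A siRNA was close to its limit: leaving out replicate number 1 or 3, control library 3 or any of the HIF1A siRNA libraries raised the adjusted p to between 0.060 and 0.30, and without the replicate block it was 0.21. Beside the HIF1A siRNA libraries, the double knockdown had a log2 difference of -0.40 (SE 0.11), which did not pass the limit (adjusted p = 0.087). P4HA2 shares 548 exon bases with the antisense RNA P4HA2-AS1.

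P4HA3, the third alpha subunit, was barely expressed, with 5 to 65 reads per library. Its level was 1.72, 1.76 and 2.17 CPM with control siRNA and 3.44, 2.59 and 0.438 CPM with HIF1A siRNA. It was at 1.23, 1.91 and 0.583 CPM with HIF2A siRNA and at 0.253, 3.99 and 0.487 CPM in the double knockdown. The conditions overlapped, the SE of its log2 fold changes against control siRNA was 0.58 to 0.75, and a change was not detectable at this depth. Its exons share 166 bases with PPME1 on the opposite strand, a gene with up to 9527 reads per library, and since the strand setting of the counting is not stated in the sources used here, the P4HA3 counts are uncertain.

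The beta subunit P4HB was at 938, 1086 and 997 CPM with control siRNA and at 850, 811 and 760 CPM with HIF1A siRNA. It was at 1130, 1077 and 993 CPM with HIF2A siRNA and at 815, 805 and 735 CPM in the double knockdown. All 6 libraries with HIF1A siRNA lay below the lowest control library, at 73.7 to 90.6% of the paired control, so the shift was small but in the same direction in every pair. The log2 fold change was -0.32 with HIF1A siRNA (SE 0.11), which did not pass the limit (adjusted p = 0.35 by edgeR), and P4HB fell in the double knockdown (log2 fold change -0.36, SE 0.09, adjusted p = 0.022). The latter call was lost without the replicate block (adjusted p = 0.24) and on leaving out replicate number 1 or 3, control library 2 or 3, or any of the double knockdown libraries (adjusted p = 0.067 to 0.36). P4HB shares 529 exon bases with a long noncoding RNA on the opposite strand.

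Among the lysyl hydroxylases, PLOD2 hydroxylates the lysines of the collagen telopeptides, the ends from which stable crosslinks form. It was at 417, 354 and 532 CPM with control siRNA and at 157, 206 and 275 CPM with HIF1A siRNA. It was at 328, 369 and 520 CPM with HIF2A siRNA and at 166, 156 and 266 CPM in the double knockdown. Replicate 3 was the highest in each condition, yet the groups with and without HIF1A siRNA did not overlap. PLOD2 fell with HIF1A siRNA (log2 fold change -1.05, SE 0.13, adjusted p = 0.00074 by edgeR) and in the double knockdown (-1.18, SE 0.12, adjusted p = 1.4e-05). With HIF2A siRNA the log2 fold change was -0.11 (SE 0.13, adjusted p = 0.96). In the fit without the replicate block neither fall was called (adjusted p = 0.25 and 0.067).

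PLOD1, which hydroxylates lysines within the helix, was at 162, 184 and 186 CPM with control siRNA and at 123, 139 and 159 CPM with HIF1A siRNA. It was at 177, 174 and 200 CPM with HIF2A siRNA and at 145, 145 and 188 CPM in the double knockdown. With HIF1A siRNA the highest library was just under the lowest control library, and in the double knockdown replicate 3 was level with its control. The log2 fold change was -0.34 with HIF1A siRNA (SE 0.11, adjusted p = 0.31 by edgeR) and -0.16 in the double knockdown (SE 0.10, adjusted p = 0.35), so neither was called.

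PLOD3, which also transfers sugars onto hydroxylysine, was at 149, 180 and 187 CPM with control siRNA and at 175, 155 and 171 CPM with HIF1A siRNA. It was at 182, 173 and 182 CPM with HIF2A siRNA and at 183, 183 and 188 CPM in the double knockdown. Each siRNA condition overlapped the control libraries. Its log2 fold change was -0.04 with HIF1A siRNA (SE 0.12), 0.07 with HIF2A siRNA (SE 0.12) and 0.10 in the double knockdown (SE 0.10), with adjusted p of 0.98, 0.98 and 0.59 by edgeR. PLOD3 shares 102 exon bases with ZNHIT1 on the opposite strand.

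LOX, the copper-dependent oxidase that starts crosslinking of collagen and elastin, had the largest fold change of the 9 genes with HIF1A siRNA and in the double knockdown. It was at 179, 178 and 112 CPM with control siRNA and at 56.2, 60.8 and 42.1 CPM with HIF1A siRNA. It was at 160, 142 and 137 CPM with HIF2A siRNA and at 56.1, 55.6 and 30.2 CPM in the double knockdown. Replicate 3 was the lowest in each condition, opposite to PLOD2, and the 6 libraries with HIF1A siRNA reached at most 38.0% of their paired controls. LOX fell with HIF1A siRNA (log2 fold change -1.55, SE 0.14, adjusted p = 3.3e-05 by edgeR), ranking 21 of 12830 genes by p, and in the double knockdown (-1.74, SE 0.14, adjusted p = 1.7e-06). Only 75 of 12830 genes had a lower log2 fold change with HIF1A siRNA, and for P4HA1, PLOD2 and P4HA2 the corresponding numbers were 172, 201 and 456. With HIF2A siRNA its log2 fold change was -0.05 (SE 0.13, adjusted p = 0.98). LOX shares 138 exon bases with SRFBP1 on the opposite strand, whose count was at most 594 in any library.

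LOXL2, an oxidase that crosslinks collagen IV of basement membranes, was at 829, 782 and 1203 CPM with control siRNA and at 765, 684 and 1087 CPM with HIF1A siRNA. It was at 705, 720 and 988 CPM with HIF2A siRNA and at 590, 460 and 772 CPM in the double knockdown. Each HIF siRNA alone left 82.1 to 92.4% of the paired control and neither change was called, with log2 fold changes of -0.15 with HIF1A siRNA (SE 0.10, adjusted p = 0.88 by edgeR) and -0.20 with HIF2A siRNA (SE 0.10, adjusted p = 0.93). In the double knockdown 58.8 to 71.2% was left, every library was below every control library, and LOXL2 fell (log2 fold change -0.63, SE 0.10, adjusted p = 0.00063). That call was lost without the replicate block (adjusted p = 0.36) and without replicate number 3 (adjusted p = 0.070). LOXL2 shares 120 exon bases with ENTPD4 on the same strand and 178 with the antisense RNA LOXL2-AS1.

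**Figure D2:**
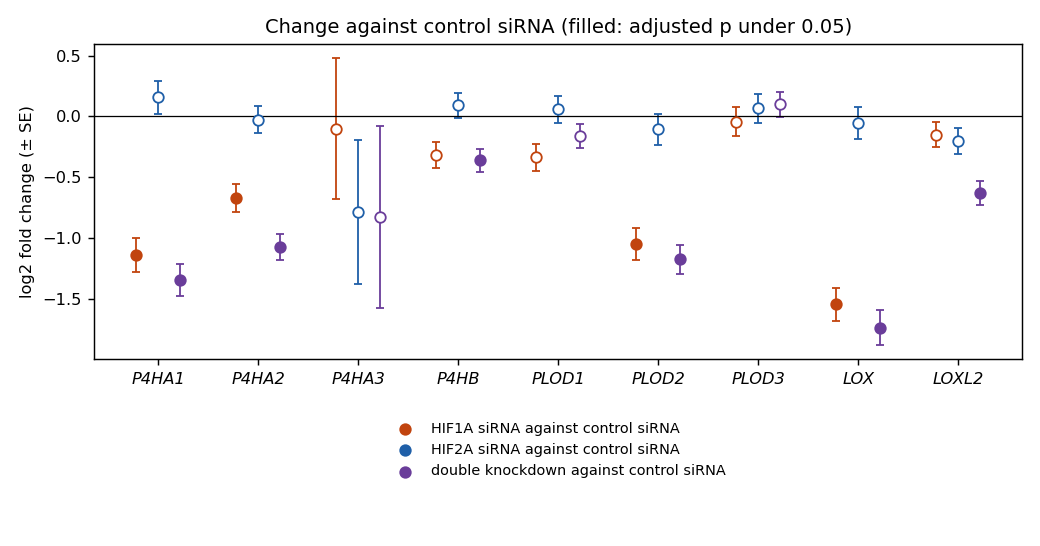
Log2 fold change against control siRNA (y axis) of each gene (x axis), with its SE, from edgeR's fits with the replicate number as a block. Filled points passed an adjusted p of 0.05. With HIF1A siRNA 4 genes are filled, with HIF2A siRNA none, and in the double knockdown 6.

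The direct comparison of the HIF siRNAs gave the same 4 members as HIF1A siRNA against control siRNA. HIF1A siRNA gave lower levels than HIF2A siRNA for 1.23% of genes tested, and for the members the log2 difference was -1.30 for P4HA1 (SE 0.14, adjusted p = 0.00018), -0.65 for P4HA2 (SE 0.12, adjusted p = 0.0098), -0.94 for PLOD2 (SE 0.13, adjusted p = 0.0015) and -1.49 for LOX (SE 0.14, adjusted p = 4.1e-05), by edgeR. P4HB, at -0.41 (SE 0.11), was above the limit here (adjusted p = 0.10) but under it with DESeq2, with the fit widened to 12 libraries or narrowed to the 6 compared, and without control library 1 (adjusted p = 0.023 to 0.040). The P4HA2 call was lost without replicate number 3 or any of the HIF1A siRNA libraries (adjusted p = 0.063 to 0.20), and without the replicate block neither P4HA2 (adjusted p = 0.22) nor PLOD2 (adjusted p = 0.35) was called. LOXL2 was at a log2 difference of 0.05 (SE 0.10).

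**Figure D3:**
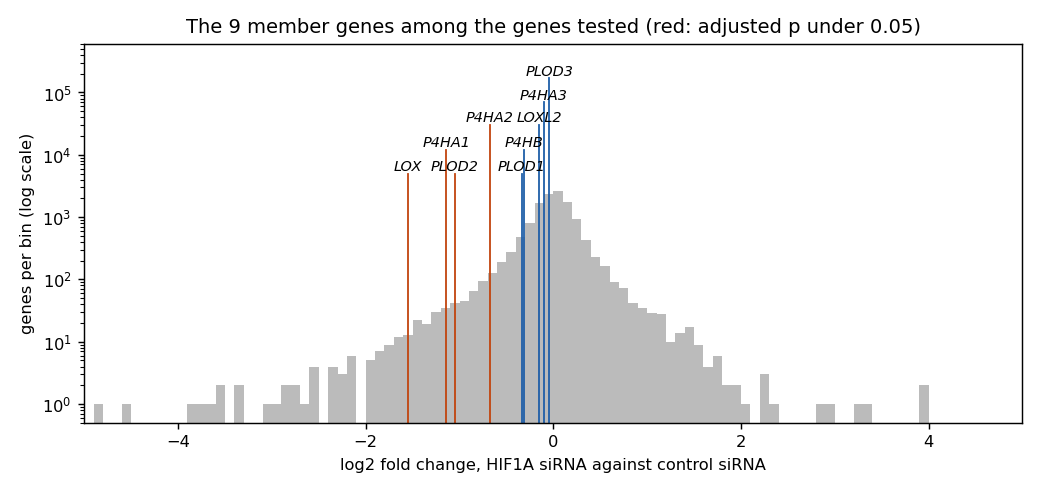
Distribution of the log2 fold change with HIF1A siRNA against control siRNA (x axis, bins of 0.1) over the 12830 genes tested (y axis, genes per bin, log scale; 1 gene lies beyond the axis). Vertical lines mark the 9 member genes, in red where the adjusted p was under 0.05. LOX, P4HA1, PLOD2 and P4HA2 sit in the lower tail, and the other 5 lie nearer to 0.

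The double knockdown, which the study did not analyze, moved more genes. The 6 members called lower against control siRNA (P4HA1, P4HA2, P4HB, PLOD2, LOX and LOXL2) stand beside 6.42% of the 13000 genes tested, and the same 6 lay wholly below the control libraries, beside 8.55% of genes. The members' median log2 fold change was -0.83, against 0.005 over all genes. Against HIF2A siRNA the same 6 genes were called lower, beside 3.22% of genes: log2 differences were -1.50 for P4HA1, -1.04 for P4HA2, -0.44 for P4HB, -1.06 for PLOD2, -1.69 for LOX and -0.42 for LOXL2. In that comparison P4HB was not called without replicate number 1 or 3, HIF2A siRNA library 1 or 3, any of the double knockdown libraries, or when only the 6 compared libraries were fitted (adjusted p = 0.053 to 0.28 by edgeR). LOXL2 was not called without any of the replicate numbers, HIF2A siRNA library 3, any of the double knockdown libraries, or with those 6 libraries alone (adjusted p = 0.055 to 0.29). The fit without the replicate block left P4HA1, P4HA2 and LOX in both comparisons.

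Against HIF1A siRNA, to which the double knockdown adds the EPAS1 siRNA in place of control siRNA, the double knockdown lowered 1 member, LOXL2, beside 0.969% of genes. HIF1A mRNA was not equal in these conditions, being higher in the double knockdown in 3 of 3 pairs (log2 difference 0.66, SE 0.21, adjusted p = 0.18 by edgeR). The log2 difference of LOXL2 was -0.48 (SE 0.10, adjusted p = 0.021 by edgeR), and LOXL2 was lower in 3 of 3 pairs. This call was lost without the replicate block (adjusted p = 1.00), without replicate number 1 or 3, and without any library of HIF1A siRNA or of the double knockdown (adjusted p = 0.060 to 0.62). P4HA2 passed the limit when only the 6 compared libraries were fitted (adjusted p = 0.0067), with DESeq2 (adjusted p = 0.021) and without HIF2A siRNA library 2 (adjusted p = 0.014). P4HA1, PLOD2 and LOX had log2 differences of -0.21, -0.13 and -0.20, none of them called. Whether the effect of both siRNAs differed from the sum of their separate effects was tested as an interaction. No member was called, beside 0% of genes. The largest interactions were those of P4HA2 (-0.37, SE 0.15), P4HA1 (-0.36, SE 0.18) and LOXL2 (-0.27, SE 0.14), with an adjusted p of 0.999 each by edgeR. At an unadjusted p under 0.05 there were 318 genes for the interaction, P4HA2 the 1 member among them, and DESeq2 called 11 genes and 0 members.

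The make-up of the families was compared by each gene's share of the family's CPM per kb. PLOD2 made up 50.9, 42.9 and 52.4% of the 3 PLOD genes with control siRNA and 28.9, 35.1 and 39.1% with HIF1A siRNA. It made up 41.3, 45.2 and 51.3% with HIF2A siRNA and 28.0, 26.8 and 35.3% in the double knockdown. PLOD2 was thus the leading PLOD transcript with control and HIF2A siRNA. With HIF1A siRNA PLOD3 held 36.7 ± 5.31% (SD, n = 3), PLOD2 34.4 ± 5.16% and PLOD1 29.0 ± 0.715%. PLOD1 had the lowest share in each HIF1A siRNA library, narrowly in replicate 1 (28.5%, beside 28.9% for PLOD2). PLOD2 and PLOD3 were not separated there. In the double knockdown the means were 38.7 ± 4.76% for PLOD3, 31.3 ± 0.334% for PLOD1 and 30.0 ± 4.63% for PLOD2, and PLOD3 and PLOD2 overlapped, replicate 3 having more PLOD2 (35.3%) than PLOD3 (33.2%). P4HA1 held 46.5 ± 0.535% of the alpha subunit transcripts with control siRNA, 38.5 ± 2.05% with HIF1A siRNA, 49.7 ± 4.33% with HIF2A siRNA and 41.7 ± 0.932% in the double knockdown, P4HA2 taking nearly all the rest. LOX made up 11.5 ± 4.42% of LOX and LOXL2 together with control siRNA, 4.67 ± 1.72% with HIF1A siRNA, 12.05 ± 2.56% with HIF2A siRNA and 5.82 ± 2.74% in the double knockdown.

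The ratios of member genes were tested on log2 CPM by 15 exact two-sided permutation tests of 3 against 3 libraries, in which the smallest p that can be reached is 0.1. The tests that reached it had a p of 0.17 after Benjamini-Hochberg adjustment over the 15. That minimum was reached with HIF1A siRNA for PLOD2 to PLOD1 (log2 ratio changed by -0.71), PLOD2 to PLOD3 (-1.01), LOX to LOXL2 (-1.39), P4HA1 to P4HA2 (-0.46) and P4HA1 to P4HB (-0.82). The double knockdown reached it for the same ratios except LOX to LOXL2, where the change of -1.12 had an exact p of 0.3, the lower ratio in replicate 3 making the groups overlap. This test sets the libraries side by side without pairing, and within pairs the LOX to LOXL2 ratio changed by -1.25 to -0.92 in the double knockdown. With HIF2A siRNA the exact p was 0.4 to 0.9. All 3 pairs moved downward in each of the 5 ratios, both with HIF1A siRNA and in the double knockdown.

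**Figure D4:**
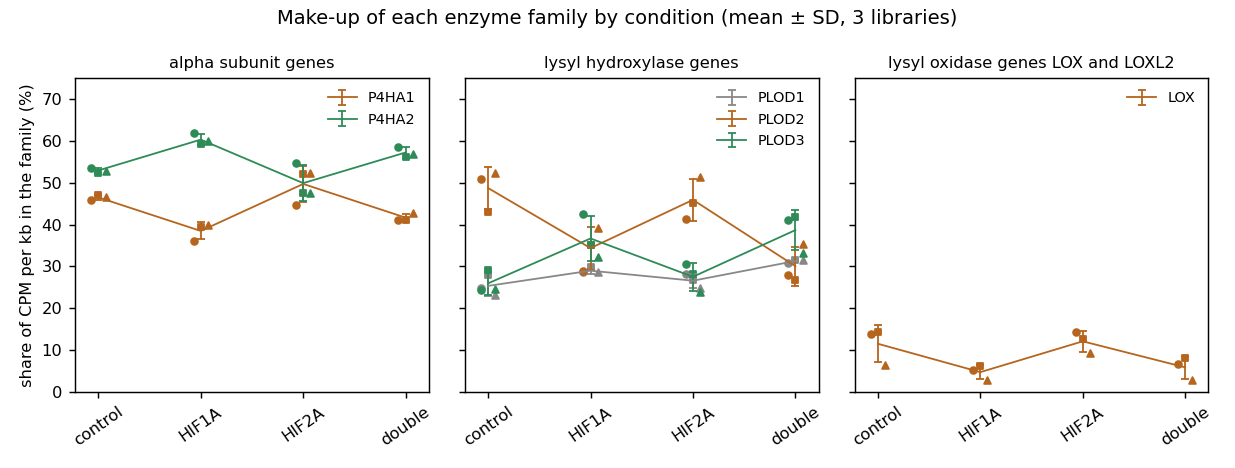
Share of each family's CPM per kb (y axis, %) taken by P4HA1 and P4HA2 (left), the PLOD genes (middle) and LOX (right) in each condition (x axis). Points are libraries, shaped by replicate number, and lines with bars are the mean ± SD of 3 libraries. The PLOD2 mean goes from 48.7% with control siRNA to 34.4% with HIF1A siRNA and 30.0% in the double knockdown.

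Replicate number and condition weighed differently on the genes. The condition took 89.3% of the variance of log2 CPM over the 12 libraries for P4HA1, 91.0% for P4HA2, 87.0% for P4HB and 88.6% for LOX. For PLOD2 the condition took 75.6% and the replicate number 21.4%. LOXL2 was the gene most tied to the replicate number, at 54.7%, against 42.3% for the condition, replicate 3 being highest in each condition. PLOD3 and P4HA3 had their largest share in neither, with 54.1% and 51.4% left over.

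Genes with the most similar pattern were ranked by Pearson's r of log2 CPM over the 12 libraries after removing replicate means, as a description, with the conditions and libraries shared by all points. For P4HA1 they were the glycolytic enzyme TPI1 (r = 0.994), SH3D21 (0.988) and the glycolytic enzyme PGK1 (0.988). For P4HA2 they were ZNF395 (0.993), RORA (0.986) and TLR3 (0.982). PLOD2 was closest to the oxidoreductase ERO1L (0.991), the mitophagy receptor BNIP3L (0.991) and the histone demethylase KDM3A (0.987), and LOX to FGF11 (0.988), hexokinase HK2 (0.986) and ZP1 (0.985). Among the members themselves, r was 0.98 for P4HA1 and PLOD2, 0.97 for P4HA1 and P4HA2 and 0.96 for PLOD2 and LOX, whereas PLOD3 had an r of -0.21 with PLOD2.

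The rest of the collagen biosynthesis pathway was described by 5 lists of 46 genes, of which 39 were tested. With HIF1A siRNA 0 of the 39 were called in either direction, where 1.14% of all genes were called lower, and their median log2 fold change was -0.02. An unadjusted p under 0.05 by edgeR was found for 5 of the 39, beside 940 of all 12830 genes. With HIF2A siRNA 0 of the 39 were called, beside 0.0857% of genes called lower, and their median was 0.05. There 2 of the 39 had that unadjusted p, beside 690 of all 12830 genes. A count of 0 among 39 is near the background in both. The 6 tested prolyl 3-hydroxylation genes and P4H relatives had log2 fold changes between -0.11 and 0.29 with HIF1A siRNA, and the 6 genes of lysyl hydroxylation partners and collagen glycosylation between -0.10 and 0.16. SERPINH1, the collagen chaperone HSP47, was at 444 ± 86.3 CPM with control siRNA and 426 ± 51.2 CPM with HIF1A siRNA (SD, n = 3), a log2 fold change of -0.06 (SE 0.13). The 3 tested relatives of the lysyl oxidases and crosslinking enzymes lay between -0.34 and -0.02, and the 10 tested procollagen processing and export genes between -0.13 and 0.82.

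Of the 14 tested collagen chains, the basement membrane chains COL4A1 and COL4A2 were at 1458 ± 480 and 1253 ± 205 CPM with control siRNA. Their log2 fold changes with HIF1A siRNA were -0.09 (SE 0.13) and -0.18 (SE 0.13). The fibrillar chain COL1A1 was at 28.1 ± 6.66 CPM, and COL1A2 and COL3A1 had no read with control siRNA, although both encode chains of interstitial collagen. COL5A1 had the smallest adjusted p of the chains with HIF1A siRNA, at a log2 fold change of -0.70 (SE 0.17, adjusted p = 0.086 by edgeR), and it was lower than with HIF2A siRNA (-1.05, SE 0.17, adjusted p = 0.0052), as was COL7A1 (-0.72, SE 0.15, adjusted p = 0.025). In the double knockdown 5 of the 39 fell against control siRNA (the crosslinking peroxidase PXDN and the chains COL5A1, COL6A3, COL12A1 and COL13A1) and 1 rose, the procollagen peptidase ADAMTS3, beside 6.42% of all genes lower and 3.86% higher. Their log2 fold changes were -0.58 for PXDN, -0.72 for COL5A1, -1.95 for COL6A3 (at only 3.17 ± 0.905 CPM with control siRNA), -0.45 for COL12A1, -0.87 for COL13A1 and 0.50 for ADAMTS3. Against HIF2A siRNA the double knockdown lowered 3 of the 39, beside 3.22% of genes, and against HIF1A siRNA 0, beside 0.969%. In the latter comparison 6 of the 39 had an unadjusted p under 0.05 by edgeR, beside 1585 of all 13000 genes.

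**Figure D5:**
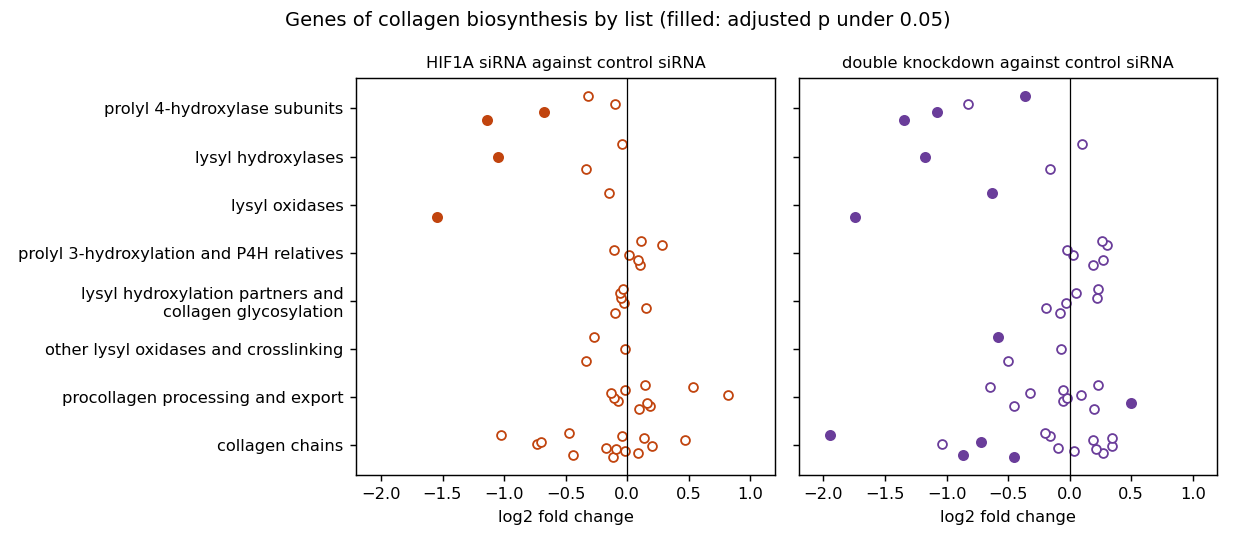
Log2 fold change (x axis) of the tested genes of collagen biosynthesis by list (y axis), with HIF1A siRNA (left) and in the double knockdown (right) against control siRNA. Each point is a gene, filled where the adjusted p was under 0.05. With HIF1A siRNA the 4 filled points are P4HA1, P4HA2, PLOD2 and LOX, and none of the 39 genes of the other lists is filled.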

How the data were processed

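RNA of RCC4 cells had been sequenced from polyA libraries (12 libraries, 4 conditions). The authors trimmed adaptors (Trim Galore 0.3.3), aligned reads to GRCh37 (HISAT2 2.05), removed fragments that were not uniquely mapped (Picard 2.0.1), counted reads per UCSC gene (HTSeq 0.5.4p3, intersection-strict) and deposited raw counts for 23106 symbols. The strand setting of the counting is not given in the sources used here. Counts were tested with edgeR 4.0.16 (quasi-likelihood, TMM, expression filter, Benjamini-Hochberg adjustment over all genes) in R 4.3.3, with replicate number as a block, because the study paired conditions by biological replicate. The first fit held the 9 libraries without the double knockdown (12830 genes), and the second all 12 (13000 genes). In the counts, 17 of 18 pairs of libraries with the same number deviated together (r above 0.1, median 0.52). Of pairs with different numbers, 9 of 36 also had an r above 0.1 (median -0.36, highest 0.53). Deviations were taken from condition means and cancel within a condition, so a positive r at the same number forces lower r at different numbers. The latter are thus no separate evidence of pairing. Replicates differed beyond sampling noise, and whether they were separate passages or days is not given in the sources used here. The p-values of the main fits measure the spread left between these libraries after differences between replicate numbers were taken out. The members and lists were chosen with earlier results of these data known. All 9 members are named, plus, for P4HA1, P4HA2, PLOD2 and LOX, the 3 genes of most similar pattern. Percentages within pairs used 0.5 CPM added to both values. Transcript lengths and gene overlaps came from GENCODE v44. Fits were also run on simulated data, which held no differences between replicate numbers and so cannot show how the block behaves in these libraries. Alternatives were DESeq2 (1.42.0), its size factors, other filters, no block, other sets of libraries, the limits used by the study, and each library or replicate number left out.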

Additional observations from a re-analysis of the deposited data

How the results depend on the processing

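Over 1251 tests of the 9 genes under alternatives, 1190 stayed on the same side of the limit, 54 lost a call and 7 gained one. With a call on either side 0 reversed in sign, and 53 changed sign without such a call. Without the replicate block, members called went from 4 to 1 (LOX) for HIF1A siRNA against control siRNA, from 4 to 2 for HIF1A against HIF2A siRNA, and for the double knockdown from 6 to 3 against control siRNA, from 1 to 0 against HIF1A siRNA and from 6 to 3 against HIF2A siRNA. Between the double knockdown and HIF1A siRNA, 2 members were called with DESeq2, with only the 6 compared libraries, and at the limits used by the study (adjusted p under 0.1 and at least 1.2-fold). With a library or replicate number left out, members called ranged from 3 to 4 (HIF1A siRNA), 0 to 0 (HIF2A siRNA), 3 to 5 (HIF1A against HIF2A siRNA), 4 to 6 (double knockdown against control siRNA), 0 to 2 (against HIF1A siRNA), 4 to 6 (against HIF2A siRNA) and 0 to 0 (interaction). The cause of these changes was not tested. All 36 mean levels moved by less than 1 SD with unscaled totals. The block changed no other call of a member. Protein and enzyme activity were not measured.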
